A study of Mus musculus with 4 samples.

Results

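The Toll-like receptors apart from Tlr4, together with Unc93b1, the chaperone that carries several of them to endosomes, were followed in mouse bone marrow after an injection of lipopolysaccharide (LPS). The set was a list of 10 genes named by family (Tlr1, Tlr2, Tlr3, Tlr5, Tlr6, Tlr7, Tlr8, Tlr9, Tlr13 and Unc93b1). A gene counted as measured where a probe set was annotated to its symbol alone, which held for 9 of the 10 listed genes, each with 1 probe set, among 19938 genes in all. Tlr5 was not analysed here. The arrays were GeneChip Mouse Gene 1.0 ST, with 1 array per sample. Mice of the C57BL/6N strain, an inbred line with no engineered allele named in the labels, received 1 intraperitoneal dose of either phosphate-buffered saline (PBS, 2 arrays, replicates 1 and 3) or 50 µg of LPS (2 arrays, replicates 1 and 2). The LPS was mixed in equal parts from Escherichia coli K12 and Salmonella minnesota, and RNA of the marrow cells was taken at 8 h in both groups. Neither the age of the mice nor how many mice made up a sample is stated in the labels, so the spread between arrays may be partly technical.

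Toll-like receptors are membrane proteins that recognise conserved microbial molecules through a leucine-rich ectodomain and signal through a cytosolic TIR domain. Tlr1, Tlr2 and Tlr6 act at the cell surface, where Tlr2 pairs with Tlr1 or Tlr6 to bind bacterial lipopeptides. Tlr3, Tlr7, Tlr8, Tlr9 and Tlr13 sense nucleic acids in endosomes and depend on Unc93b1 to leave the endoplasmic reticulum. LPS itself is recognised by Tlr4, which is not among the members. In marrow, myeloid cells, B cells and plasmacytoid dendritic cells each carry their own set of these receptors.

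After LPS, 3 of the 9 measured members rose (Tlr3, Tlr1 and Tlr9), 1 fell (Tlr8) and 5 did not pass the test. Passing means an adjusted p below 0.05 in a limma fit, corrected by the Benjamini-Hochberg method across the whole gene table. Of all genes tested, 2.39% rose and 1.27% fell, 3.66% together, against 33.3% and 11.1% of the members. The median log2 fold change of the members was 0.40, beside -0.01 over all genes. In 8 of the 9 members the LPS and PBS arrays were fully separated, 6 with LPS higher and 2 with LPS lower. Of all genes tested, 44.9% were separated in this way, 20.4% with LPS higher and 24.5% with LPS lower. These shares describe a list of 9 genes and were not tested. The calls were not equally firm: of the 4, Tlr8 and Tlr9 did not pass without LPS replicate 2, and with all 35556 probe sets in the fit Tlr3 alone of the members passed. An unmoderated linear model called 0 members, with 4 at an unadjusted p under 0.05.

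The deposited values had been normalized to a common scale with RMA. Each array had a median of 8.01 to 8.03 on the log2 scale, which thus does not show how alike the samples were. Markers of the marrow lineages were bright in PBS, with mean log2 values of 13.41 for the neutrophil gene S100a8, 12.16 for the B-cell gene Cd79a and 13.11 for the red cell anion exchanger gene Slc4a1. PBS replicate 1 was lower than PBS replicate 3 in bone-related genes, with log2 values of 11.99 and 13.33 for the collagen gene Col1a1 and of 8.61 and 10.59 for the osteoclast protease gene Ctsk. Without PBS replicate 1 the 4 members called were again 3 higher and 1 lower. In such bulk samples, a change in the share of a cell type and a change in RNA per cell cannot be told apart.

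**Figure D1:**
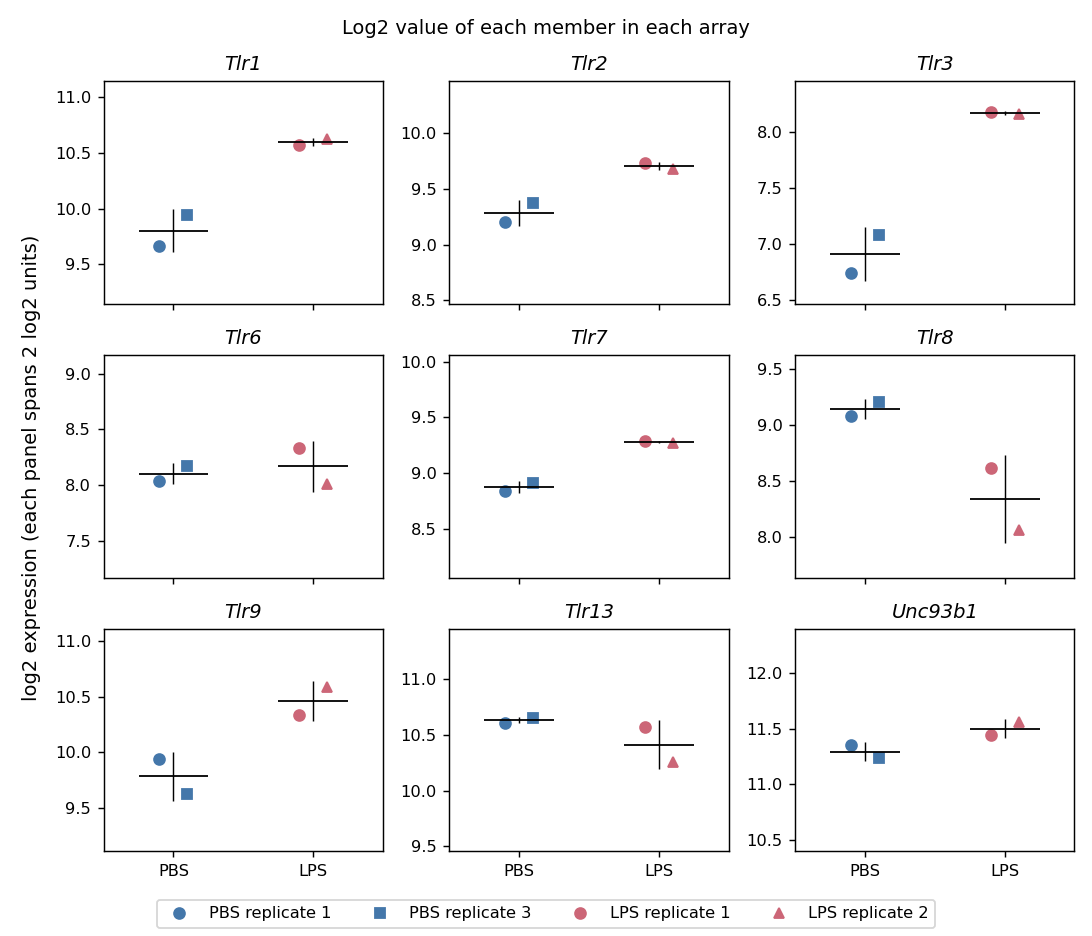
Log2 expression of the 9 measured members in PBS (blue) and LPS (red) arrays, 1 panel per gene with 1 point per array. Horizontal lines mark group means and vertical lines 1 SD (n = 2 per group), and each panel spans 2 log2 units around its own centre. Tlr3, at 6.74 and 7.08 in PBS and 8.19 and 8.16 in LPS, moved most, and Tlr6 is the panel in which the groups overlap.

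Upstream sequence was read for the members found in the RefSeq promoter table of GRCm38.p6, which gave 9 windows for 7 members: each window holds 250 bases before a transcript start and 50 after it. The upstream 250 bases are shown for the 3 members with 1 window whose level changed (Tlr3, Tlr9 and Tlr8) and for a Tlr6 window, since Tlr6 did not pass the test yet held a motif of interferon-responsive genes. Sequences run 5′ to 3′ on the gene's strand, and capitals mark matches on either strand to GAAA and GAAA set 2 bases apart (the interferon-stimulated response element, ISRE), TTCNNNGAA (the STAT-binding GAS element), GGGA and TTTCC set 1 base apart (an NF-kappaB site) or AANNGAAA (the IRF half-site, which every ISRE match contains and which was added after the sequences were seen).
Tlr3 (chr8:45410381-45410630, minus strand): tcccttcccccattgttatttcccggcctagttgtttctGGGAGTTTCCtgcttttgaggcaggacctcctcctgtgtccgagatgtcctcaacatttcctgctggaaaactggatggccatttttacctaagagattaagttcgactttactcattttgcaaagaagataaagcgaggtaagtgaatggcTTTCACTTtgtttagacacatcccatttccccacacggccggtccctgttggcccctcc
Tlr9 (chr9:106222348-106222597, plus strand): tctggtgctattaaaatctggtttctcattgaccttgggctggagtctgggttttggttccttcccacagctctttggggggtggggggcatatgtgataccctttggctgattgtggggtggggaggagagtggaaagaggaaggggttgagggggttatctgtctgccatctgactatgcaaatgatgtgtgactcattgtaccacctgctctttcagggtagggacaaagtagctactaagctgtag
Tlr8 (chrX:167264330-167264579, minus strand): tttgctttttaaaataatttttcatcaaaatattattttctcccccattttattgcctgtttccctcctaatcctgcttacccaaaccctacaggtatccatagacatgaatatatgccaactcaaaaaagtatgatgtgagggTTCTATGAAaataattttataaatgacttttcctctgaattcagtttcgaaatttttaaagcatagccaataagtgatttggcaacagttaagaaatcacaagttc
Tlr6 (chr5:64959167-64959416, minus strand): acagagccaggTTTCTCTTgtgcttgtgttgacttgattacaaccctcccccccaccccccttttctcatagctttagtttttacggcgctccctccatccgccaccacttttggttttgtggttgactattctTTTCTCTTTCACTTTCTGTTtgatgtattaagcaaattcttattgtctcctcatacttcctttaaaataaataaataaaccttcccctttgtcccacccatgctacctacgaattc

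Of the 9 windows, that of Tlr3 alone held the NF-kappaB letters, first base at -211 from the start, and they occur in 0.411% of all 32851 promoter windows of this length. IRF half-sites lay in 4 of the 9 windows, against 23.9% of all windows: 1 in Tlr3 at -59 to -52, 1 in a Tlr1 window at -54 to -47, 2 in Tlr2 with first bases at -191 and -145, and 4 in the Tlr6 window shown. The Tlr6 window shown held 2 overlapping ISRE matches, first base at -116 and -110, which 3.44% of all windows hold. GAS matches lay in 3 of the 9 windows, against 8.3% of all windows: Tlr8 at -106 to -98, 1 Tlr1 window at -228 to -220, and the Tlr6 window not shown, with matches at -3 to 5 and at 7 to 15. The Tlr9 sequence has no capitals, so none of these 4 letter strings lies in its upstream part. Also searched on both strands were GAGGAA, a core bound by the myeloid factor PU.1, found in the windows of Tlr8, Tlr9, Tlr13 and 1 of Tlr1 (28.3% of all windows), and CACGTG, the E-box, in 1 Tlr1 window (7.15%). A match is a description of the letters and not evidence of binding.

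Of the surface receptors, Tlr1 rose. Tlr1, the partner of Tlr2 for triacylated lipopeptides, had log2 values of 9.67 and 9.94 in PBS replicates 1 and 3 and of 10.58 and 10.62 in LPS replicates 1 and 2. The LPS values were the higher in every pairing, and the LPS arrays differed from each other by less than the PBS arrays did. The group means were 9.80 ± 0.19 in PBS and 10.60 ± 0.035 in LPS (SD, n = 2 each). Tlr1 thus rose 1.74-fold, or by 0.80 log2 (SE 0.111, 95% interval 0.54 to 1.06), and limma gave an adjusted p of 0.0078. It was the 260th largest rise of the 19938 genes. With every probe set in the fit the adjusted p was 0.063, so that call ended, while over the 4 fits that left out 1 array it was at most 0.0143.

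Tlr2, the shared subunit of both lipopeptide receptors, did not pass. Its log2 values were 9.20 and 9.37 in PBS and 9.73 and 9.68 in LPS, so the groups did not overlap. The estimate of 0.42 log2 (SE 0.0965, 95% interval 0.20 to 0.65), 1.34-fold, came with a limma adjusted p of 0.064. Without PBS replicate 3 it was 0.50 with an adjusted p of 0.0287, which passed.

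Tlr6, the partner of Tlr2 for diacylated lipopeptides, gave overlapping groups. Its log2 values were 8.03 and 8.17 in PBS and 8.33 and 8.00 in LPS, with the highest and the lowest of the 4 values both after LPS. The estimated log2 fold change of 0.07 did not pass (SE 0.124, 95% interval -0.22 to 0.36, limma adjusted p = 0.884), and its sign turned in 2 of the fits that left out an array. The interval leaves room for a rise of up to 0.36 log2, so no change in either direction was detectable with 2 arrays per group.

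**Figure D2:**
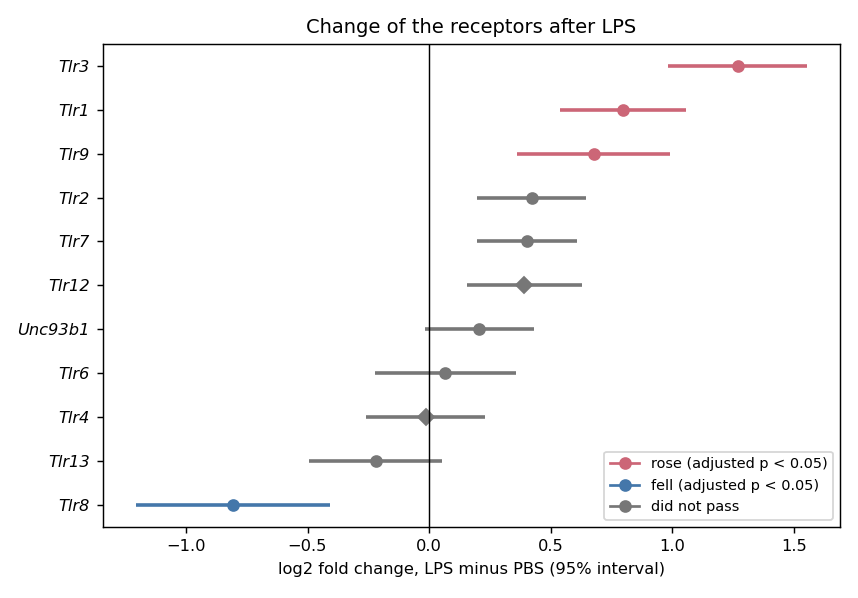
Log2 fold change (LPS minus PBS, horizontal axis) of each measured member (circles) and of Tlr4 and Tlr12 (diamonds), with 95% intervals from the limma fit. Red genes rose, blue genes fell and grey genes did not pass; Tlr3 has the highest value, 1.27, and Tlr8 the lowest, -0.81.

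Among the endosomal receptors, Tlr3 and Tlr9 rose and Tlr8 fell. Tlr3, the receptor for double-stranded RNA and the one that signals through Ticam1 and not Myd88, had log2 values of 6.74 and 7.08 in PBS and of 8.19 and 8.16 in LPS. Both LPS arrays stood more than 1 log2 unit above either PBS array. The means were 6.91 ± 0.24 and 8.18 ± 0.016 (SD, n = 2 each). The rise was 2.41-fold, or 1.27 log2 (SE 0.123, 95% interval 0.98 to 1.55), and limma gave an adjusted p of 0.00121. This made it the 110th largest rise of all genes. The PBS mean lay just above the lower quartile of each array (6.66 to 6.72), and the deposited values carry no detection call, so the size of the fold is less certain than that of brighter members. Tlr3 passed in each of the moderated fits tried, with adjusted p at most 0.021.

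Tlr9, the receptor for unmethylated CpG DNA, had log2 values of 9.94 and 9.63 in PBS and 10.33 and 10.59 in LPS. The gap between the groups was wider than the distance within either of them. The 1.60-fold rise, 0.68 log2 (SE 0.134, 95% interval 0.36 to 0.99), came with a limma adjusted p of 0.0382. Without LPS replicate 2 the change was 0.55 with an adjusted p of 0.111. It did not pass either with the arrays quantile-normalized again (0.052) or with every probe set in the fit (0.165).

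Tlr7, which responds to single-stranded RNA, and Tlr8 of the same subfamily had estimates of opposite sign, of which that of Tlr8 passed. Tlr7 had log2 values of 8.84 and 8.92 in PBS and 9.29 and 9.27 in LPS, with no overlap and the smallest LPS spread of the members (SD 0.012, n = 2). Its log2 fold change of 0.40 (SE 0.0882, 95% interval 0.20 to 0.61) had a limma adjusted p of 0.0547, just short of the threshold. It passed under both rescalings of the arrays (adjusted p 0.0465 and 0.0454) and with the dimmest genes left out (0.0457). It did not pass with every probe set in the fit (0.16) or in the unmoderated linear model (0.344). Over the fits that left out 1 array the estimate ran from 0.36 to 0.44.

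Tlr8 had log2 values of 9.08 and 9.21 in PBS and of 8.62 and 8.06 in LPS. Both LPS arrays were below both PBS arrays, and LPS replicate 2 was the lower. The means were 9.14 ± 0.087 and 8.34 ± 0.40 (SD, n = 2 each), so Tlr8 changed by -0.81 log2 (SE 0.171, 95% interval -1.20 to -0.41), a 1.75-fold fall, with a limma adjusted p of 0.0484. It was the 57th largest fall of all genes. The size rested partly on LPS replicate 2: without it the change was -0.53 with an adjusted p of 0.0773, and without LPS replicate 1 it was -1.09. With the arrays quantile-normalized again the adjusted p was 0.0555, which did not pass.

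Tlr13, the mouse receptor for bacterial ribosomal RNA, had log2 values of 10.61 and 10.65 in PBS and 10.57 and 10.26 in LPS. Like Tlr8, it was lowest in LPS replicate 2. The groups did not overlap, but the log2 fold change of -0.22 (SE 0.118, 95% interval -0.49 to 0.05) did not pass (limma adjusted p = 0.432), and it was -0.064 without LPS replicate 2.

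Unc93b1, the chaperone of the endosomal receptors, did not pass. Its log2 values were 11.35 and 11.23 in PBS and 11.44 and 11.56 in LPS. The groups lay apart by less than the distance within either of them, with an estimate of 0.21 log2 (SE 0.0962, 95% interval -0.02 to 0.43, limma adjusted p = 0.355).

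In order of their change the members ran Tlr3, Tlr1, Tlr9, Tlr2, Tlr7, Unc93b1, Tlr6, Tlr13 and Tlr8. The 95% intervals of each pair of neighbours in this order overlapped, those of Tlr13 and Tlr8 only between -0.49 and -0.41, and the differences between neighbours were not tested. Levels of different genes were not set against each other, since probe sets differ in how brightly they hybridise.

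Outside the list, 2 more receptors of the family were measured and neither passed. Tlr4, the LPS receptor, had log2 values of 8.88 and 8.93 in PBS and 9.01 and 8.78 in LPS, with a log2 fold change of -0.01 (SE 0.105, limma adjusted p = 0.978). Its sign turned under 3 of the other settings, so no direction is given. Tlr12, a receptor for a protozoan actin-binding protein, had 7.89 and 7.67 in PBS and 8.18 and 8.16 in LPS. Its log2 fold change was 0.39 (SE 0.102, limma adjusted p = 0.0983). Over the fits that left out 1 array it ran from 0.285 to 0.50.

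Some members lie next to each other in the genome, and in both such pairs the log2 difference within an array was higher after LPS. The pairs were not among the planned comparisons, and each shift follows from the changes of its genes given above. Tlr1 and Tlr6 are neighbours on chromosome 5 and Tlr7 and Tlr8 on chromosome X, with 0 protein-coding genes starting between them in the RefSeq annotation (GRCm38.p6). The log2 difference Tlr1 minus Tlr6 within an array was 1.63 and 1.77 in PBS and 2.25 and 2.62 in LPS, so it was wider in both LPS arrays, on average by 0.73. The difference Tlr7 minus Tlr8 was -0.25 and -0.29 in PBS and 0.67 and 1.21 in LPS, a shift of 1.21 log2 or 2.31-fold. In a two-sided exact permutation test each shift gave p = 0.333 (also 0.333 when adjusted over the 2 pairs), which is the smallest p that 2 arrays against 2 allow. The direction of each shift held in both LPS arrays, and the data cannot show more than that.

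**Figure D3:**
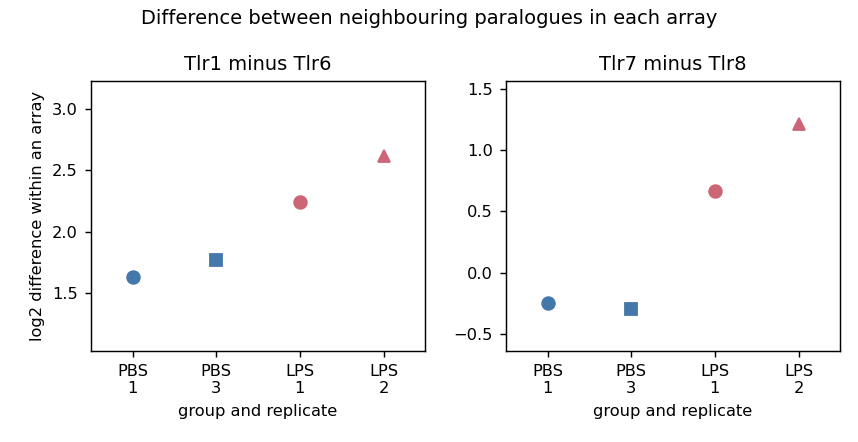
Log2 difference between neighbouring paralogues within each array (vertical axis), Tlr1 minus Tlr6 on the left and Tlr7 minus Tlr8 on the right, for the 2 PBS (blue) and 2 LPS (red) arrays. Only shifts between groups can be read, since the height itself depends on the probe sets: both LPS points lie above both PBS points in each panel, and Tlr7 minus Tlr8 goes from -0.25 and -0.29 to 0.67 and 1.21.

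The genes around the receptors moved mostly upward where they passed. Of 84 genes listed as accessory proteins, trafficking factors, lysosomal enzymes, adaptors, kinases, transcription factors, brakes and other receptors of the pathway, 75 were measured; 16 rose, 1 fell and 58 did not pass, and their median log2 fold change was 0.05. That is 21.3% rising and 1.33% falling, beside 2.39% and 1.27% of all genes. The lists were chosen by function with earlier results of these data known, and these shares were not tested. Without LPS replicate 2, 10 rose.

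At the surface, 1 of 10 accessory genes rose and the rest did not pass. It was Cd14, the co-receptor that hands LPS and lipopeptides to the receptors, with log2 values of 7.36 and 7.23 in PBS and 9.19 and 9.28 in LPS (log2 fold change 1.94, SE 0.095, adjusted p = 4.28e-05).

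Of 12 folding and trafficking genes, 2 rose and 10 did not pass. The risers were Slc15a3 (0.98, SE 0.107, adjusted p = 0.00221), a lysosomal transporter of histidine and peptides, and Rab7b (0.89, SE 0.112, adjusted p = 0.0048), a small GTPase of late endosomes and lysosomes. Cnpy3, a co-chaperone that many of the receptors need to fold, had 0.12, and Hsp90b1, the endoplasmic reticulum chaperone it works with, had 0.23; both missed the threshold.

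Among 9 measured lysosomal proteases and nucleases, which trim the endosomal receptors or digest their ligands, 2 rose and 1 fell. Dnase1l3, a nuclease that degrades DNA in vesicles and chromatin outside cells, rose by 1.36 log2 (SE 0.0984, adjusted p = 0.000245). Ctss, a cysteine protease that cleaves the ectodomains of endosomal receptors, rose by 0.51 (SE 0.0862, adjusted p = 0.0203), and did not pass without LPS replicate 1 (0.0714) or LPS replicate 2 (0.086). Pld3, an exonuclease that degrades single-stranded nucleic acids in lysosomes, fell by 0.48 (SE 0.0907, adjusted p = 0.0308). Among the fits that left out 1 array, this call held only without PBS replicate 3.

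Of 7 adaptor genes Myd88 alone passed. Myd88 serves every receptor among the members except Tlr3 and had log2 values of 11.15 and 11.03 in PBS and 11.68 and 11.84 in LPS (log2 fold change 0.67, SE 0.1, adjusted p = 0.011). Ticam1, the adaptor of Tlr3, had 0.06 (adjusted p = 0.868). Whether the 2 adaptors changed by different amounts was not tested.

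Of 15 measured kinases and ubiquitin ligases 2 rose and 13 did not pass. Ikbke, a kinase that activates interferon regulatory factors, rose by 0.86 (SE 0.0882, adjusted p = 0.00163) and Map3k8, the kinase upstream of ERK in this pathway, by 0.49 (SE 0.0878, adjusted p = 0.0252). The call for Map3k8 was lost in 3 of the 4 fits without 1 array, with adjusted p up to 0.106.

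Transcription factors had 4 rises among 9 measured genes. They were Irf7 (1.85, adjusted p = 5.71e-05) and Irf1 (1.30, adjusted p = 0.000427), interferon regulatory factors that act downstream of endosomal receptors, and the NF-kappaB family genes Nfkb2 (0.59, adjusted p = 0.0304) and Relb (0.50, adjusted p = 0.0335). Nfkb2 did not pass without LPS replicate 2 (0.121), and Relb passed only without PBS replicate 1 among the fits that left out an array. Irf1 had 2 probe sets, whose mean rose by less (0.71, adjusted p = 0.0043). Of 11 measured genes listed as brakes on signalling, 4 rose. These were Tnfaip3 (0.89, adjusted p = 0.00427), a ubiquitin-editing enzyme, Nlrc5 (0.68, adjusted p = 0.0147), the NF-kappaB inhibitor gene Nfkbia (0.62, adjusted p = 0.0129) and its relative Nfkbiz (0.49, adjusted p = 0.0262). Whether these genes acted as brakes here was not tested. Nlrc5 is better known as the transactivator of MHC class I genes, and the mean of its 19 probe sets rose by more (1.32, adjusted p = 0.000387). Nlrc5 did not pass without LPS replicate 2 (0.0533), nor Nfkbiz without LPS replicate 1 (0.0649) or LPS replicate 2 (0.129).

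**Figure D4:**
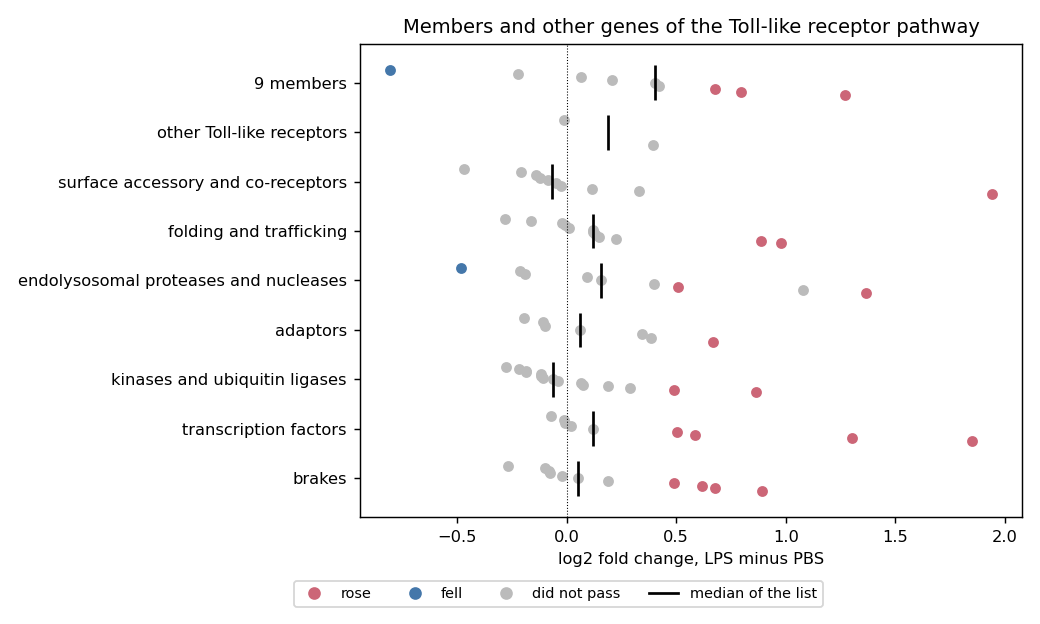
Log2 fold change (LPS minus PBS, horizontal axis) of the 9 members and of 75 other genes of the pathway, 1 point per gene, by function. Red points rose, blue points fell, grey points did not pass, and black bars are list medians; the median of the members is 0.40 and the medians of the other lists lie between -0.07 and 0.19.

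Genes with the profile most like that of each called member were sought among 18608 named genes over the 4 arrays, by the root mean square distance between log2 profiles centred on their own means. Nearest to Tlr3 were Ifi207 (distance 0.0395 log2), a p200-family interferon-activated gene, the cytosolic LPS sensor gene Casp4 (0.0416) and Rarres2 (0.0535), which encodes chemerin. Nearest to Tlr1 were Gpr176 (0.0342), the lectin receptor gene Clec4e (0.0365) and Ddah1 (0.0413). Tlr9 lay closest to the immunoproteasome subunit gene Psmb8 (0.0259), the complement gene C4b (0.0355) and the RNA-editing enzyme gene Adar (0.0359). Tlr8 had Ap1s2 (0.066), Abcg3 (0.0692) and Niban1 (0.0814) as its nearest genes, at larger distances than the other called members. These are descriptions over 4 arrays that fall into 2 groups, so any gene with a similar shift comes near.

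**Figure D5:**
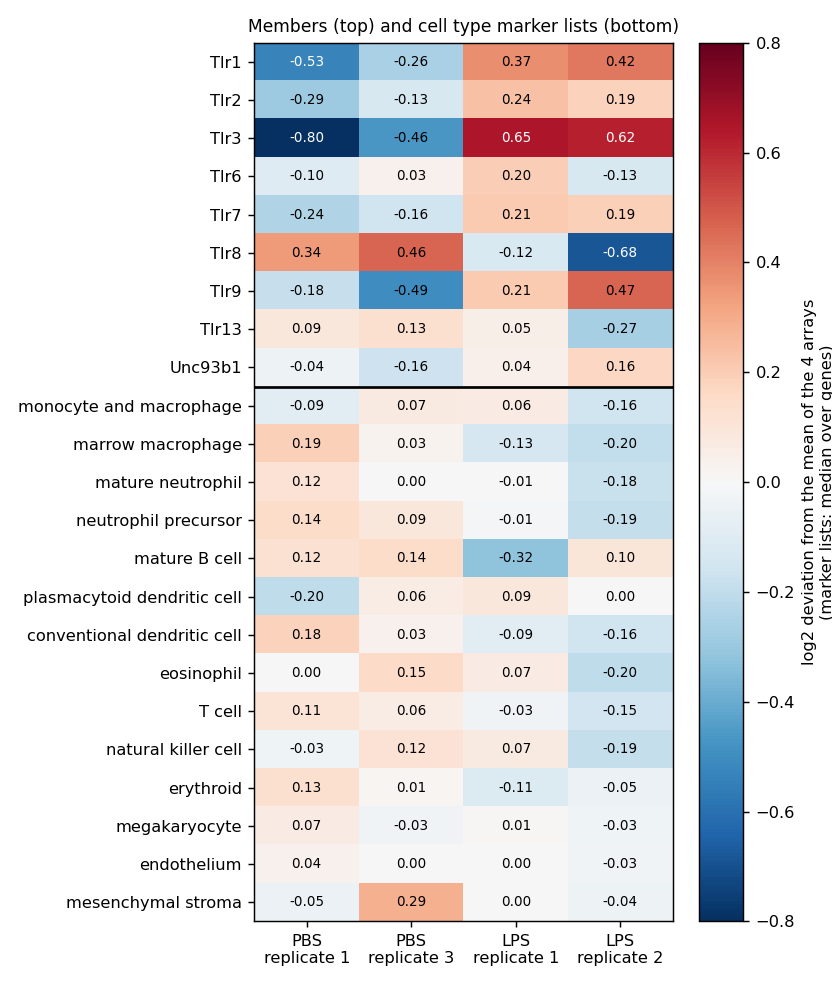
Log2 deviation of each member from its own mean over the 4 arrays (top), and the median deviation over the genes of 14 cell type marker lists (bottom), with columns for the arrays and colour from blue (lower) to red (higher). Tlr8 is lowest in LPS replicate 2, at -0.68, the array in which 10 of the 14 lists are lowest, lymphoid ones such as T cells (-0.15) and natural killer cells (-0.19) among them, and mature B-cell markers are lowest in LPS replicate 1, at -0.32.

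Markers of marrow cell types changed as well. Of 105 measured markers in 14 lists 7 rose and 17 fell, 6.67% and 16.2%, against 2.39% and 1.27% of all genes. These lists were also chosen with earlier results of these data known, and the shares were not tested. The list medians of the log2 fold change lay between -0.26 and 0.10, and most lists held members of both signs. The part of cell composition in the changes of the receptors was not tested. Of 8 measured monocyte and macrophage markers 2 rose and 1 fell, with a median of -0.07. The Fc receptor gene Fcgr1 (1.57, adjusted p = 8.09e-05) and Adgre1 (0.56, adjusted p = 0.0286) rose and the phagocytic receptor gene Mertk (-0.54, adjusted p = 0.0317) fell. Adgre1 did not pass without PBS replicate 1 (0.055) or LPS replicate 1 (0.0912), nor Mertk without LPS replicate 2 (0.158). Of 9 marrow macrophage markers 1 rose and 3 fell, with a median of -0.26; Cd163 had the largest fall, -2.41 (adjusted p = 1.91e-05), and Spic, a transcription factor gene of iron-recycling macrophages, rose by 1.49 (adjusted p = 0.000435).

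Tlr8 was compared with the myeloid lists array by array. In LPS replicates 1 and 2 Tlr8 deviated from its mean by -0.12 and -0.68. Monocyte and macrophage markers stood at 0.06 and -0.16 there, and at -0.09 and 0.07 in PBS replicates 1 and 3. Mature neutrophil markers stood at -0.01 and -0.18 in LPS and at 0.12 and 0.00 in PBS, and neutrophil precursor markers at -0.01 and -0.19 in LPS and 0.14 and 0.09 in PBS. These lists were thus also lowest in LPS replicate 2, as were 10 of the 14 lists in all, including T-cell (-0.15), natural killer (-0.19) and eosinophil markers (-0.20). Their part in the fall of Tlr8 was not tested. Of 9 mature neutrophil markers 1 rose and 1 fell, namely Il1r2 (1.20, adjusted p = 0.000414) and Retnlg (-0.76, adjusted p = 0.0171).

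Tlr9 and Tlr7, prominent in B cells and plasmacytoid dendritic cells, were set beside the markers of both. Of 9 measured mature B-cell markers 3 fell and 6 did not pass, with a median of -0.24; Fcer2a (-1.61, adjusted p = 6.96e-05), Cr2 (-0.75, adjusted p = 0.0105) and H2-Ob (-0.74, adjusted p = 0.0231, and 0.0501 without LPS replicate 1) fell. Their median deviation was 0.12 and 0.14 in PBS and -0.32 and 0.10 in LPS, while Tlr9 stood at -0.18 and -0.49 in PBS and 0.21 and 0.47 in LPS. Single B-cell markers differed from this median. Ms4a1, Cd79a and Cd79b, at 11.15, 12.27 and 12.37 log2, were each highest in LPS replicate 2, as was Tlr9. The Cd79b value lay close to its 12.36 in PBS replicate 3. Cr2, Fcer2a, Cd22, Blk, H2-Ob and Fcrla, the other measured markers of the list, were each highest in a PBS array. For Cd22 and Blk this was a near tie with LPS replicate 2. Cd22 had 10.08 in PBS replicate 1 and 10.06 in LPS replicate 2, and Blk 9.83 in PBS replicate 3 and 9.81 in LPS replicate 2. The part of B cells in the rise of Tlr9 was not tested. Of 7 measured plasmacytoid dendritic cell markers 1 rose, Bst2 (1.60, adjusted p = 5.71e-05), which interferon induces in many cell types. Of the 7 estimates, 4 were positive. The defining plasmacytoid marker Siglech had -0.31 (adjusted p = 0.254), while Ccr9 had 0.34 (adjusted p = 0.234) and Lair1 0.38 (adjusted p = 0.189). That list had a median of 0.10 and stood at -0.20 and 0.06 in PBS and 0.09 and 0.00 in LPS.

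Conventional dendritic cells carry Tlr3 at high levels in 1 of their subsets. Of the 8 markers of these cells 1 fell, the lectin gene Cd209a (-2.02, adjusted p = 5.32e-05), and the list median was -0.22, with 0.18 and 0.03 in PBS and -0.09 and -0.16 in LPS. Xcr1 and Clec9a, markers of the subset that carries Tlr3, had 0.13 (adjusted p = 0.634) and -0.19 (adjusted p = 0.481). The PBS mean of Xcr1, 6.81, lay just above the lower quartile of each array (6.66 to 6.72), so its estimate is less certain. The part of these cells in the rise of Tlr3 was not tested. Endothelial cells and stroma can carry Tlr3 as well. Of 7 endothelial markers 3 fell and 4 did not pass (median 0.04), the largest fall being that of the sinusoidal scavenger receptor gene Stab2 (-1.26, adjusted p = 0.000206). Of 7 stromal markers 1 fell, the leptin receptor gene Lepr (-0.59, adjusted p = 0.0178, and 0.0616 without LPS replicate 1), with a median of -0.10.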

How the data were processed

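The values were deposited by the authors as log2 expression per probe set, made with RMA per the submitters' processing notes; no version or probe annotation of RMA is named in them. RMA normalizes the arrays to a common distribution, so a shift shared by most genes would not be seen. Genes were named from the platform annotation: of 35556 probe sets, 21789 had 1 symbol, 1621 several and 12146 none. The brightest probe set stood for a gene. No filter on low values was applied.

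LPS and PBS were compared with limma 3.58.1 in R 4.3.3 (lmFit, eBayes, two-sided) over 19938 genes, all 4 arrays and no covariate (2 residual and 5.59 prior degrees of freedom), with Benjamini-Hochberg adjustment. Adjusted p-values and 95% intervals are from this fit. The fit was also run on simulated data drawn from its own model, which cannot show how reliable the calls on these arrays are. Figures used Python 3.11.15 and matplotlib 3.10.9. Precision is limited by the number of arrays, 2 per group. The members and gene lists were chosen with earlier results of these data known.

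Named genes were all measured members, Tlr4 and Tlr12, up to 4 rising and 4 falling genes per pathway list, up to 3 per cell type list, and the 3 nearest profiles per called member; genes named without passing the test (such as Ticam1, Cnpy3, Hsp90b1, Xcr1, Clec9a and Siglech) and the marker and bone genes given for the arrays were chosen after their values were seen.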

Additional observations from a re-analysis of the deposited data

How the results depend on the processing

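Tlr3 passed in each alternative but the unmoderated linear model, where its log2 fold change was the same (1.27) and its adjusted p 0.38. That model called 0 genes, higher or lower, and 0 members or pathway genes, with 2185 genes and 4 members at an unadjusted p under 0.05. With every probe set in the fit 355 probe sets were higher and 63 lower, 1 member was higher and 0 lower (6 members at an unadjusted p under 0.05), and 8 pathway genes were higher and 0 lower; this fit tested more features and had 3.35 prior degrees of freedom, against 5.59. At an adjusted p under 0.01, 286 genes were higher and 58 lower, 2 members passed, with 0 lower, and 8 pathway genes were higher and 0 lower. With the arrays quantile-normalized again 0 members were lower, 3 were higher, and Tlr4 had 0.0003. Leaving out 1 array gave 385 to 696 higher and 127 to 423 lower genes, 2 to 6 members (2 to 5 higher, 0 to 1 lower), 10 to 17 higher and 0 to 1 lower pathway genes, and a median of 0.34 to 0.44 for the members. In these fits Tlr6 ran from -0.096 to 0.23 and Tlr4 from -0.13 to 0.10. A fit without 1 array leaves a group with 1 sample, which is assumed to vary like the other group. The cause of these shifts was not tested. No paired analysis was possible because the groups share only replicate number 1. Of 600 results of single genes under the alternatives, 476 kept their direction and side of the threshold, 113 no longer passed, 6 newly passed and 5 turned sign.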
